A study of Homo sapiens with 8 samples.

Results

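The urokinase and plasminogen activation system was examined in Reh cells, an established line from an acute lymphoblastic leukaemia of B cell precursors. The set held 5 genes, PLAU, PLAUR, PLAT, SERPINE2 and SERPINB2, and took every probe set of the array that carried exactly 1 of these symbols. This gave 8 probe sets of 4 genes, among 41091 probe sets of 19775 genes: 2 for PLAU, 3 for PLAUR, 1 for PLAT and 2 for SERPINE2. No probe set carried SERPINB2 as its only symbol in the annotation used here, so its level was not analysed here. Expression had been measured on Affymetrix U133 Plus 2.0 arrays as log2 RMA values, and all levels below are on that scale unless stated. Cells of the tested groups had received IRF5-4D together with IKKβ(EE) (the combination), IRF5-4D alone, or IKKβ(EE) alone, and mock cells had received control constructs. IRF5-4D is an active form of the transcription factor IRF5, and IKKβ(EE) is an active form of the kinase that switches on NF-κB. Each group had 2 arrays, which the submitters call biological duplicates, and the labels number them 1 and 3. All of the cells are of 1 line, and the sources used here do not give the share of cells that took up a construct. The values are averages over the cells of a culture, so that more RNA per cell and more expressing cells cannot be told apart.

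Urokinase (PLAU) and tissue plasminogen activator (PLAT) are secreted serine proteases that cut plasminogen into plasmin, a protease of broad specificity that dissolves fibrin and degrades extracellular matrix. The urokinase receptor PLAUR, anchored in the membrane by a lipid, holds urokinase at the cell surface and also signals through partner receptors. Protease nexin-1 (SERPINE2) and plasminogen activator inhibitor 2 (SERPINB2) are serpins that trap and inactivate the activators. In the immune system urokinase and its receptor are best known from myeloid cells and activated lymphocytes, and PLAU is a known target of NF-κB.

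The arrays were comparable in scale, with medians of at most 5.14 and lower quartiles of 3.67 to 3.73, and within each group the duplicates had a correlation of 0.994 to 0.997 over 19775 genes. The number of arrays limits the precision. Of 3 IKBKB probe sets 1 (211027_s_at) was called in the groups with the kinase construct, and it read 11.11 and 9.33 in the combination and 12.57 and 10.98 with IKKβ(EE), against 4.80 and 4.06 in mock cells, and 4.68 and 4.60 with IRF5-4D. The remaining IKBKB probe sets read 0.16 and 0.043 above mock in the combination and 0.14 and 0.028 above it with IKKβ(EE), and did not pass. Of 3 IRF5 probe sets 0 were called with IRF5-4D alone against mock, at 0.57 (205468_s_at), 0.20 (205469_s_at) and 0.051 (239412_at), with adjusted p from 0.701 to 0.995. In the combination 205469_s_at rose by 0.92 (SE 0.13, adjusted p = 0.00586) over mock and stood 0.71 above IRF5-4D alone (adjusted p = 0.0379). Since it is unknown whether the construct contains the targets of these IRF5 probes, the values leave the label unchecked. Of 9 measured B lineage markers 8, including PAX5, EBF1, CD79A and DNTT, lay above the array median on all 8 arrays, as did 3 of 10 myeloid markers (CSF1R, ITGAM and CST3) and 6 of 14 stromal, epithelial and endothelial markers, and none of the 9 was called in any group against mock. Monocytes and stromal cells also express this system. Of 10 measured myeloid markers 0 were called in limma in any group against mock (1 in the combination, 0 with IRF5-4D and 1 with IKKβ(EE) at an unadjusted p under 0.05), and their median level was 4.00 to 4.02 in the combination, 3.97 to 4.03 with IRF5-4D, 4.10 to 4.12 with IKKβ(EE) and 3.95 to 4.31 in mock cells. Of 14 stromal, epithelial and endothelial markers 0 were called in limma (1 in the combination, 2 with IRF5-4D and 0 with IKKβ(EE) at an unadjusted p under 0.05), with median levels of 5.07 to 5.18 in the combination and 5.09 to 5.21 in mock cells. Of 8 markers of T and NK cells 1, NKG7, rose in the combination by 1.34 (SE 0.19).

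The sequences before the annotated starts are shown because PLAU, PLAUR and SERPINE2 all rose in the combination of an NF-κB activating kinase with an interferon regulatory factor. They are the 250 bases before each start in RefSeq on GRCh38.p14, and 3 of the 4 measured genes had an entry. Capitals mark matches, on either strand, to GGGANNNNCC (a loose κB-type motif), GAAANNGAAA (an interferon response type motif) or TGANTCA (an AP-1 type motif).
PLAU, upstream start, chr10:73910360-73910609, strand +: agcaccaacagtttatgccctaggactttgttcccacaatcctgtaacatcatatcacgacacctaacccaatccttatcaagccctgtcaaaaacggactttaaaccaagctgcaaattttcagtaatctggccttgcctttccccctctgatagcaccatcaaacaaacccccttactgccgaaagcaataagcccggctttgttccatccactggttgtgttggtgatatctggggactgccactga
PLAU, downstream start, chr10:73910882-73911131, strand +: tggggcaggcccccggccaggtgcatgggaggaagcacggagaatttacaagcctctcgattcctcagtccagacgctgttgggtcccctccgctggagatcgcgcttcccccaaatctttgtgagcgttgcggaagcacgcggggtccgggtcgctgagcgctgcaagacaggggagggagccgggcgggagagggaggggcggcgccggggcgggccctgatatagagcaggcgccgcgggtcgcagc
PLAUR, chr19:43670170-43670419, strand -: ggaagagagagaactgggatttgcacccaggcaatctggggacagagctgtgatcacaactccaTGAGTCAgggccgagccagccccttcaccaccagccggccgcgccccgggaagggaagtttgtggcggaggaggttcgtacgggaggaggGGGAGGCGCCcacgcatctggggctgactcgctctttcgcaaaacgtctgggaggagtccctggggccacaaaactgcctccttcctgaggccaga
SERPINE2, upstream start, chr2:224038641-224038890, strand -: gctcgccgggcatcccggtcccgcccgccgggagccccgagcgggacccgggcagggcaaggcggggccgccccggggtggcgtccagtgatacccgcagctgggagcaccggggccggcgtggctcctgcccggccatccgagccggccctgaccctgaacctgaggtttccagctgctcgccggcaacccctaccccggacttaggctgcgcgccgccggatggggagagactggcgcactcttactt
SERPINE2, downstream start, chr2:224031479-224031728, strand -: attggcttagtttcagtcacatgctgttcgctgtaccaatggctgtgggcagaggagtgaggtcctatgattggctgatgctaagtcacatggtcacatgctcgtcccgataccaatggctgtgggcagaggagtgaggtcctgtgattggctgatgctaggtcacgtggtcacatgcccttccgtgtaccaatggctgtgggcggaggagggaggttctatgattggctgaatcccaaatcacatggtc
The PLAUR window held 1 match to GGGANNNNCC, 96 to 87 bases before the start, and 1 match to TGANTCA, 186 to 180 bases before it. These were GGGAGGCGCC and TGAGTCA. The PLAU and SERPINE2 windows held no match to any of the 3 motifs, but sequence outside these 250 bases was not searched. Of 35116 windows of the same length, 22.6% held GGGANNNNCC, 3.02% held GAAANNGAAA and 6.57% held TGANTCA. The match in PLAUR describes the letters of the window and does not show a bound site.

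On 1 of its 2 probe sets PLAU was raised by each construct alone, and on both the combination stood above each single construct. The probe set with the higher level (205479_s_at) read 9.76 and 9.03 in the combination, 6.84 and 6.87 with IRF5-4D, 7.52 and 6.94 with IKKβ(EE), and 4.88 and 4.40 in mock cells. Every array with a construct lay above both mock arrays, and both combination arrays lay above all others. The rise over mock was 4.76 (SE 0.27, limma adjusted p = 2.86e-05) or 27.0-fold in the combination, which placed this probe set at rank 27 of 41091 from the top. It was 2.22 (SE 0.27, adjusted p = 0.0108) or 4.65-fold with IRF5-4D and 2.59 (SE 0.27, adjusted p = 0.00412) or 6.02-fold with IKKβ(EE). The combination was 2.54 (SE 0.27, adjusted p = 0.00325) above IRF5-4D and 2.17 (SE 0.27, adjusted p = 0.00468) above IKKβ(EE). IRF5-4D and IKKβ(EE) differed by -0.37 (95% confidence interval -0.98 to 0.23), with an adjusted p of 0.901, and the order of these neighbours is not settled. The call with IRF5-4D was lost without IRF5-4D replicate 1, IRF5-4D replicate 3 or mock replicate 3, and the call with IKKβ(EE) was lost without IKKβ(EE) replicate 1, with log2 differences of 1.98 to 2.46 and 2.30 to 2.88 over all fits without 1 array. The call against IRF5-4D was lost without either IRF5-4D array, and that against IKKβ(EE) without IKKβ(EE) replicate 3 (adjusted p up to 0.0578 and 0.0529).

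The other PLAU probe set (211668_s_at) gave a different picture of the single constructs. It read 7.93 and 7.16 in the combination, 5.54 and 5.23 with IRF5-4D, 5.98 and 5.67 with IKKβ(EE), and 4.85 and 5.30 in mock cells. The IRF5-4D arrays overlapped the mock arrays, while the IKKβ(EE) arrays lay above them. The combination rose by 2.47 (SE 0.26, adjusted p = 0.00101) or 5.54-fold over mock. IRF5-4D read 0.31 (SE 0.26, adjusted p = 0.982) and IKKβ(EE) 0.75 (SE 0.26, adjusted p = 0.558) above mock, and neither passed. The combination was 2.16 (SE 0.26, adjusted p = 0.00501) above IRF5-4D and 1.72 (SE 0.26, adjusted p = 0.0125) above IKKβ(EE). These calls were lost when either array of the single construct was left out (adjusted p up to 0.0814 and 0.131), and the second also in a fit of the compared groups alone (adjusted p = 0.0521). Across the 8 arrays the PLAU probe sets correlated at 0.901, and with their mean as the value of the gene the difference with IRF5-4D was 1.26 and did not pass (adjusted p = 0.187).

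**Figure D1:**
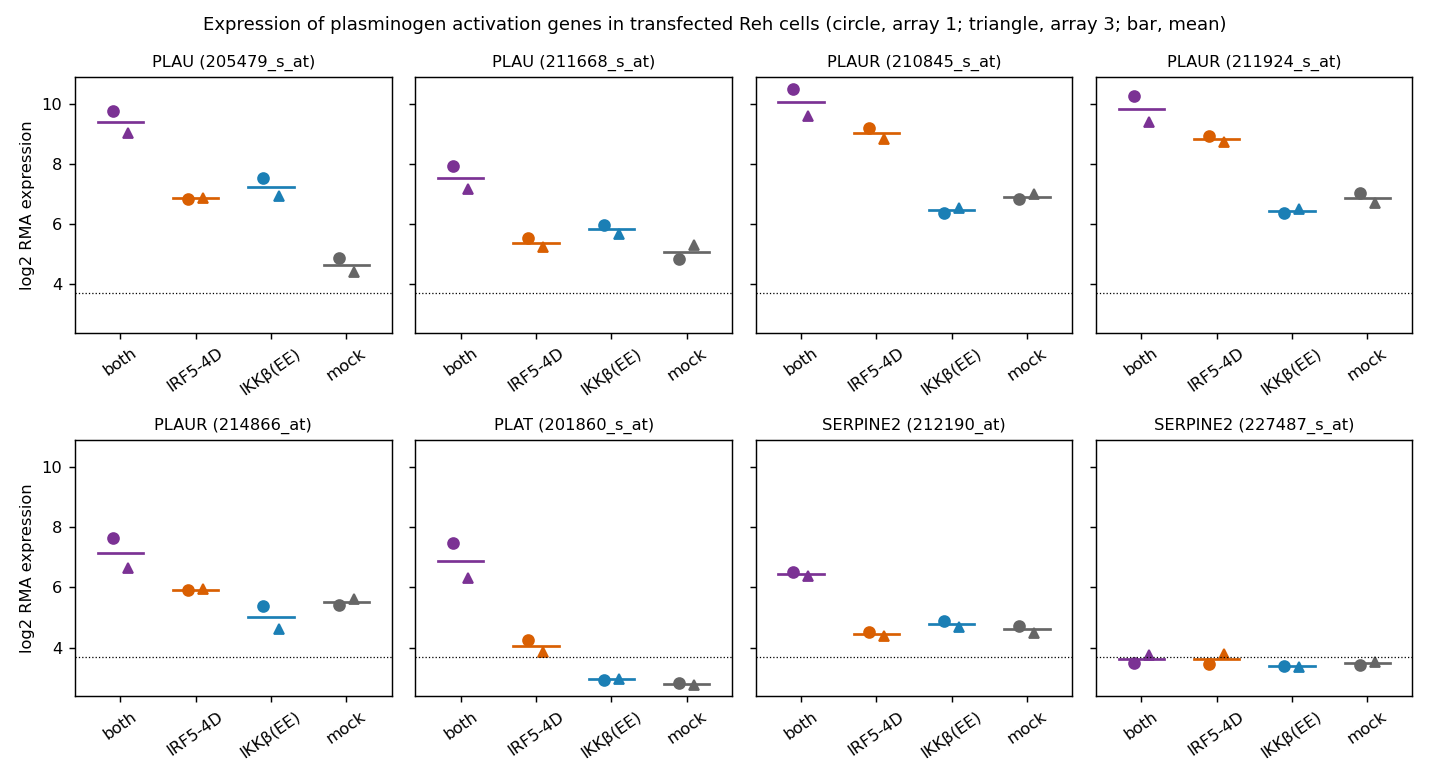
Log2 RMA expression (y axis) of each of the 8 probe sets on every array, by transfection group (x axis, "both" is the combination), with circles for arrays numbered 1, triangles for arrays numbered 3, bars for group means and a dotted line at the median of the arrays' lower quartiles. PLAU (205479_s_at) is raised in all 3 construct groups, PLAUR (210845_s_at and 211924_s_at) in the groups with IRF5-4D, PLAT mainly in the combination, and SERPINE2 (212190_at) in the combination, while SERPINE2 (227487_s_at) stays between 3.35 and 3.80.

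PLAUR, the receptor, followed IRF5-4D. The probe set 210845_s_at read 10.50 and 9.60 in the combination, 9.19 and 8.84 with IRF5-4D, 6.38 and 6.54 with IKKβ(EE), and 6.83 and 7.0 in mock cells. All arrays with IRF5-4D lay above all arrays without it, and the IKKβ(EE) arrays lay below the mock arrays. It rose by 3.14 (SE 0.26, adjusted p = 0.000255) or 8.81-fold over mock in the combination and by 2.10 (SE 0.26, adjusted p = 0.0109) or 4.29-fold with IRF5-4D. With IKKβ(EE) the difference from mock was -0.45 (95% confidence interval -1.03 to 0.12, adjusted p = 0.819), which did not pass. IRF5-4D stood 2.55 (SE 0.26, adjusted p = 0.00332) or 5.87-fold above IKKβ(EE), rank 15 of 41091 in that comparison. The combination stood 3.59 (SE 0.26, adjusted p = 0.000199) above IKKβ(EE). Its difference from IRF5-4D alone, 1.04 (95% confidence interval 0.46 to 1.61, adjusted p = 0.113), did not pass. The rise with IRF5-4D over mock was not called without either IRF5-4D array or either mock array, and that over IKKβ(EE) was not called without IKKβ(EE) replicate 1 or IRF5-4D replicate 1. Over all fits without 1 array the values were 1.93 to 2.28 and 2.38 to 2.73, and with the mean of the PLAUR probe sets the rise over mock was 1.49 (adjusted p = 0.114).

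The second PLAUR probe set, 211924_s_at, moved almost identically and correlated at 0.996 with the first across the 8 arrays. It read 10.26 and 9.39 in the combination, 8.95 and 8.73 with IRF5-4D, 6.37 and 6.52 with IKKβ(EE), and 7.04 and 6.71 in mock cells. It rose by 2.95 (SE 0.25, adjusted p = 0.000311) in the combination and by 1.96 (SE 0.25, adjusted p = 0.0146) with IRF5-4D, and read -0.43 (adjusted p = 0.827) with IKKβ(EE). Both IKKβ(EE) arrays also lay below both mock arrays, but these are the same arrays and not a repeat.
The third, 214866_at, read 7.66 and 6.65 in the combination, 5.91 and 5.95 with IRF5-4D, 5.39 and 4.62 with IKKβ(EE), and 5.41 and 5.60 in mock cells. Its rise of 1.65 (SE 0.32, adjusted p = 0.0293) in the combination passed, but not without combination replicate 1 or any 1 of the IRF5-4D and mock arrays (range over all fits without 1 array 1.14 to 2.16), nor in a fit of the compared groups alone (adjusted p = 0.0874). Its difference of 0.42 (SE 0.32, adjusted p = 0.981) with IRF5-4D did not pass.

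PLAT, the tissue-type activator, was raised in the combination from levels in mock cells below the arrays' lower quartile. Its probe set (201860_s_at) read 7.47 and 6.32 in the combination, 4.25 and 3.85 with IRF5-4D, 2.92 and 2.96 with IKKβ(EE), and 2.84 and 2.77 in mock cells. The combination lay well above all other arrays, and the IRF5-4D arrays lay above those of IKKβ(EE) and mock. The rise over mock was 4.09 (SE 0.31, adjusted p = 0.000163) or 17.0-fold, rank 37 of 41091. The combination was 2.85 (SE 0.31, adjusted p = 0.00344) above IRF5-4D and 3.95 (SE 0.31, adjusted p = 0.0003) above IKKβ(EE), and the call against IRF5-4D was lost without IRF5-4D replicate 3 at adjusted p = 0.0625. With IRF5-4D alone PLAT read 1.24 above mock (95% confidence interval 0.55 to 1.93), which did not pass over all probe sets (adjusted p = 0.439) but did without combination replicate 1 or combination replicate 3. The fit shared its estimate of the spread over all groups. The SD of PLAT was 0.82 in the combination, against 0.29 with IRF5-4D, 0.025 with IKKβ(EE) and 0.047 in mock cells. With IKKβ(EE) alone PLAT read 0.14 (95% confidence interval -0.55 to 0.82, adjusted p = 0.97). Signal this low may be background, which leaves the size of the PLAT fold changes uncertain.

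SERPINE2, the inhibitor, was raised where both constructs were present. Its probe set 212190_at read 6.51 and 6.38 in the combination, 4.52 and 4.38 with IRF5-4D, 4.87 and 4.68 with IKKβ(EE), and 4.73 and 4.49 in mock cells. The combination arrays stood clear of the rest, and each single construct overlapped mock. The rise over mock was 1.84 (SE 0.14, adjusted p = 0.000163) or 3.57-fold. The combination was 2.00 (SE 0.14, adjusted p = 0.000442) above IRF5-4D and 1.67 (SE 0.14, adjusted p = 0.000413) above IKKβ(EE), and these 3 calls held in each of the 8 fits without 1 array. IRF5-4D read -0.16 (95% confidence interval -0.47 to 0.15, adjusted p = 0.982) and IKKβ(EE) 0.17 (95% confidence interval -0.14 to 0.48, adjusted p = 0.894) from mock. The other SERPINE2 probe set, 227487_s_at, lay between 3.35 and 3.80 on all arrays, near the lower quartile, and read 0.15 (SE 0.15, adjusted p = 0.712) in the combination. The probe sets correlated at 0.24 across the arrays, so the rise of SERPINE2 rests on 212190_at.

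Over the set, 7 of 8 probe sets were called higher and 0 lower in the combination against mock, where 2.04% of all 41091 probe sets were called higher. The median difference of the 8 was 2.71, beside -0.032 over all probe sets. With IRF5-4D 3 of 8 were higher (background 0.238%) and the median was 0.83, beside -0.012 over all. With IKKβ(EE) 1 of 8 was higher (background 0.37%) and the median was 0.019, beside -0.024 over all. The comparisons share the mock arrays. The combination exceeded IRF5-4D for 4 of 8 probe sets (background 0.84%), those of PLAU, PLAT and SERPINE2 (212190_at), and exceeded IKKβ(EE) for 7 of 8 (background 1.06%). IRF5-4D exceeded IKKβ(EE) for 2 of 8 (background 0.258%), both of PLAUR.
The genes were chosen with earlier results of these arrays known, and probe sets of a gene are not independent. Without 1 array the counts ranged from 6 to 7 in the combination and from 0 to 4 with IRF5-4D, with 0 without IRF5-4D replicate 1, IRF5-4D replicate 3 or mock replicate 3 and 1 without mock replicate 1. With IKKβ(EE) the count was 0 without IKKβ(EE) replicate 1. Against IRF5-4D the combination had 1 when IRF5-4D replicate 3 was left out, 2 for IRF5-4D replicate 1 and 7 for combination replicate 3. Against IKKβ(EE) it had 4 without IKKβ(EE) replicate 3. IRF5-4D against IKKβ(EE) had 0 without IKKβ(EE) replicate 1 or IRF5-4D replicate 1.

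**Figure D2:**
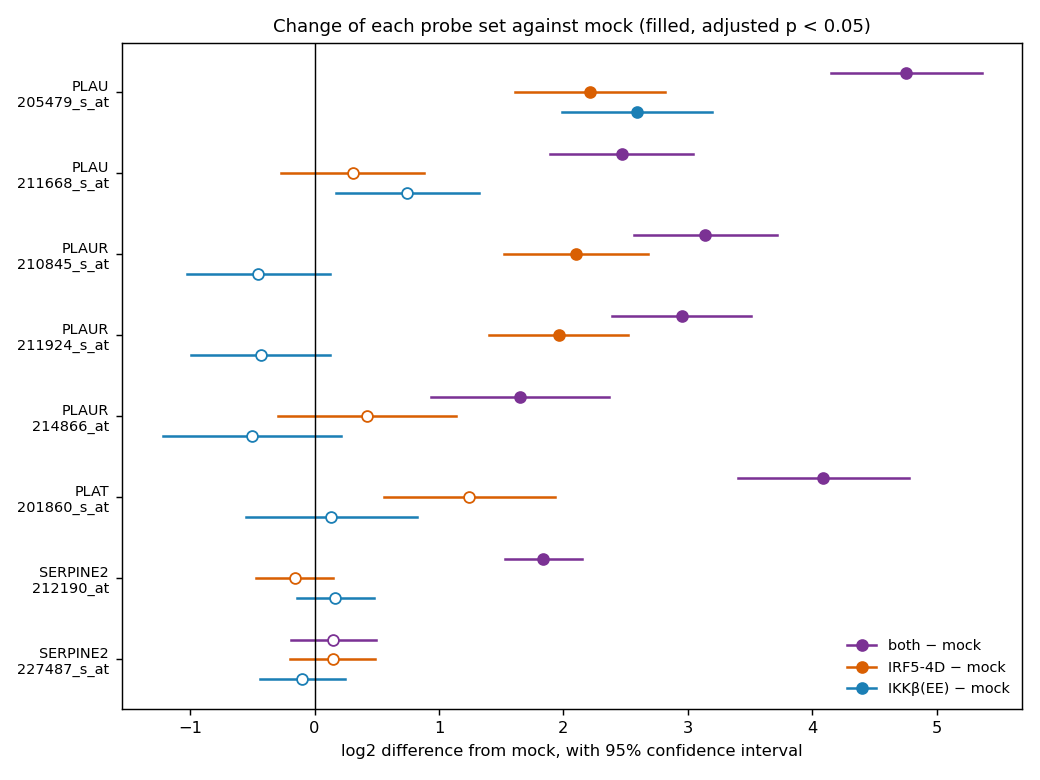
Log2 difference from mock (x axis) of each probe set (y axis) in the combination ("both"), with IRF5-4D and with IKKβ(EE), with 95% confidence intervals from limma and filled points at an adjusted p under 0.05. In the combination 7 of 8 points are filled, with IRF5-4D 3 (PLAU 205479_s_at, PLAUR 210845_s_at and PLAUR 211924_s_at), and with IKKβ(EE) 1 (PLAU 205479_s_at).

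The interaction asks whether the combination departs from the sum of the single-construct differences on the log2 scale. For SERPINE2 (212190_at) the combination averaged 6.45, against 4.62 for that sum, an interaction of 1.83 (SE 0.19, adjusted p = 0.0162). This was the 1 of 8 probe sets that passed, where 0.0535% of all passed upward. The call held without combination replicate 3 or mock replicate 3 and was lost in the other 6 fits without 1 array, with values of 1.71 to 1.95. With the mean of the SERPINE2 probe sets it was 0.97 (adjusted p = 0.0614). PLAT had an interaction value of 2.71 (95% confidence interval 1.74 to 3.68), which did not pass (adjusted p = 0.0943) but did with the replicate number as a block (adjusted p = 0.0191). Its mock and IKKβ(EE) levels lay below the lower quartile and may be background, so the size of this value is uncertain. It was called without combination replicate 1 (2.13) and without combination replicate 3 (3.29), and in the second of these fits 4 of 8 probe sets passed, with 210845_s_at and 211924_s_at of PLAUR among them. The 3 PLAUR probe sets read 1.49, 1.42 and 1.73 (adjusted p from 0.337 to 0.398), and PLAU (211668_s_at) read 1.41 (adjusted p = 0.384).
For PLAU (205479_s_at) the combination averaged 9.40, against 9.45 for the sum, and the interaction was -0.050 (95% confidence interval -0.90 to 0.80, adjusted p = 0.994). The scale matters for this gene. In unlogged RMA units the combination exceeded mock by 649 units, against 90.8 with IRF5-4D and 125 with IKKβ(EE), which is 3.0 times the sum of the single rises. For PLAUR (210845_s_at) the unlogged rise was 942 units in the combination, 397 with IRF5-4D and -32.5 with IKKβ(EE). For PLAT it was 112, 9.56 and 0.689 units. These unlogged values are a description and were not tested.

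**Figure D3:**
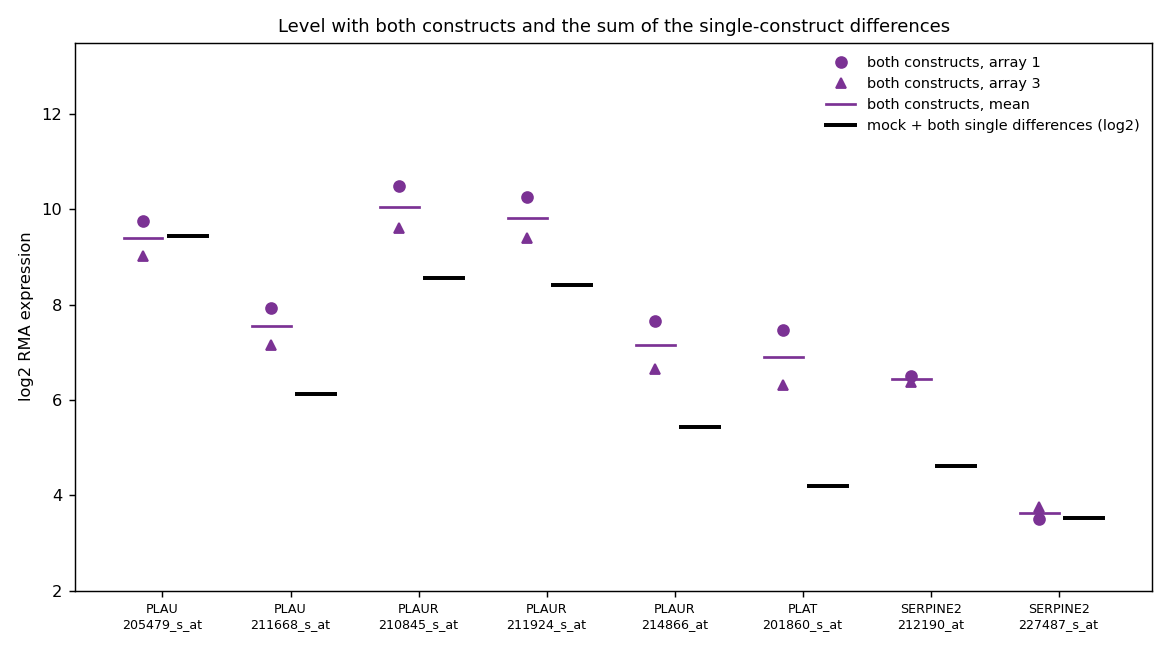
Log2 RMA expression (y axis) of each probe set (x axis) in the combination, as single arrays (circle, array 1; triangle, array 3) and their mean, beside a black bar for the mock mean plus the log2 differences of both single constructs. Observed and summed values nearly coincide for PLAU (205479_s_at) at 9.40 and 9.45, while PLAT lies 2.71 and SERPINE2 (212190_at) 1.83 above the sum.

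The arrays of the combination differed from each other in these genes. Array 1 lay above array 3 by 0.73 and 0.77 for the PLAU probe sets, by 0.86 to 1.01 for those of PLAUR, by 1.16 for PLAT and by 0.13 for SERPINE2 (212190_at). For SERPINE2 (227487_s_at) the gap was -0.26. The IKBKB probe set of the kinase construct was 1.77 higher on array 1 of the combination, 1.59 higher on array 1 of IKKβ(EE) and 0.74 higher on array 1 of mock. With IKKβ(EE) alone array 1 was 0.58 higher for PLAU (205479_s_at), 0.77 higher for PLAUR (214866_at) and 0.16 lower for PLAUR (210845_s_at). In mock cells the gap of array 1 over array 3 was 0.48 for PLAU (205479_s_at) and -0.45 for PLAU (211668_s_at). For PLAUR it was -0.18 (210845_s_at), 0.33 (211924_s_at) and -0.19 (214866_at). The part of the construct level in these gaps was not tested.

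The other genes of the system came from a list of 69, of which 65 were measured, each by its probe set with the highest mean. In the combination 5 of 65 rose and 0 fell, where 2.66% of 19775 genes rose, and the median difference was -0.011, beside -0.027 over all genes. With IRF5-4D and with IKKβ(EE) 0 of 65 passed in limma (backgrounds 0.319% and 0.516% in either direction), and 0 of 65 passed in the interaction (background 0.126%). At an unadjusted p under 0.05 these counts were 3, 7 and 5. Among 7 genes of plasminogen and plasmin-generating proteases 0 passed in limma in the combination, and 0 at an unadjusted p under 0.05. PLG, plasminogen itself, read 4.52 in the combination and 4.76 in mock cells, a difference of -0.24 (SE 0.14, adjusted p = 0.445), and F12, which starts contact activation, read -0.26 (SE 0.20).
Of 8 measured inhibitors 0 passed in limma, and 0 at an unadjusted p under 0.05. The highest value was that of SERPINI1 (neuroserpin), an inhibitor of PLAT, at 0.55 (SE 0.31, adjusted p = 0.443).

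Of 21 proteins that bind plasminogen or its activators at the cell surface 2 rose in the combination. ANXA2, annexin A2, a surface receptor for plasminogen and PLAT, read 10.03 and 9.07 in the combination, 8.20 and 7.67 with IRF5-4D, 6.44 and 5.97 with IKKβ(EE), and 6.81 and 6.46 in mock cells. As with PLAUR, both groups with IRF5-4D lay above all arrays without it. The rise was 2.91 (SE 0.31, adjusted p = 0.00113) or 7.52-fold in the combination. With IRF5-4D the difference was 1.30 and did not pass. The probe set is one of 3 ending in _x_at, which may also bind related transcripts, and those 3 read 2.81 to 3.21, while the fourth probe set of the gene read 0.24 (SE 0.13). S100A10, the partner of annexin A2 in its surface complex, read 0.13 (SE 0.14, adjusted p = 0.722). IGF2R, which binds PLAUR and plasminogen as well as mannose 6-phosphate, rose by 0.72 (SE 0.15, adjusted p = 0.0335) in the combination. It read 10.52 and 10.60 in the combination, 10.12 and 9.83 with IRF5-4D, 10.51 and 10.42 with IKKβ(EE), and 9.98 and 9.69 in mock cells. The difference with IKKβ(EE) alone, 0.63 (SE 0.15, adjusted p = 0.17), was close to that of the combination in size and did not pass. On other IGF2R probe sets the combination read 0.69 (adjusted p = 0.0196), which passed, and 0.42 (adjusted p = 0.387), which did not. The plasminogen receptor PLGRKT read 0.44 (SE 0.15, adjusted p = 0.185).

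Of 13 substrates of urokinase or plasmin 1 rose, VEGFA, an angiogenic growth factor that plasmin can release from matrix. It read 9.45 and 9.03 in the combination, 7.82 and 7.77 with IRF5-4D, 8.85 and 7.50 with IKKβ(EE), and 7.72 and 7.33 in mock cells, a rise of 1.72 (SE 0.36, adjusted p = 0.0378) in the combination. Its other 3 probe sets read 0.18 to 0.50 and did not pass.
Of 8 other genes of the serpin cluster that holds SERPINB2, 1 rose. SERPINB10 read 4.63 and 4.24 in the combination, 3.27 and 3.34 with IRF5-4D, 3.45 and 3.29 with IKKβ(EE), and 3.29 and 3.38 in mock cells. The combination lay above all other arrays, which were below the lower quartile, and the rise was 1.10 (SE 0.15, adjusted p = 0.00442). Of 8 measured relatives of PLAUR by domain 1 rose, the complement inhibitor CD59, by 0.60 (SE 0.12, adjusted p = 0.036) in the combination. It read 8.95 and 9.09 in the combination, 9.24 and 9.0 with IRF5-4D, 8.78 and 8.80 with IKKβ(EE), and 8.44 and 8.39 in mock cells. The difference with IRF5-4D alone, 0.70 (SE 0.12, adjusted p = 0.0808), was larger and did not pass. On other CD59 probe sets the rise in the combination was 0.99, 0.95 and 0.81 (adjusted p = 0.00332, 0.00834 and 0.0396). The remaining CD59 probe set read 0.059 (adjusted p = 0.907) and did not pass. For the genes of the list, fits without 1 array covered only the probe set with the highest mean. ANXA2 and SERPINB10 kept their calls in each of the 8 fits without 1 array. VEGFA and CD59 kept theirs in 2 and IGF2R in 3, and the count of 5 became 2 without combination replicate 1, combination replicate 3 or mock replicate 3, and 3 without mock replicate 1 or either IKKβ(EE) array.

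**Figure D4:**
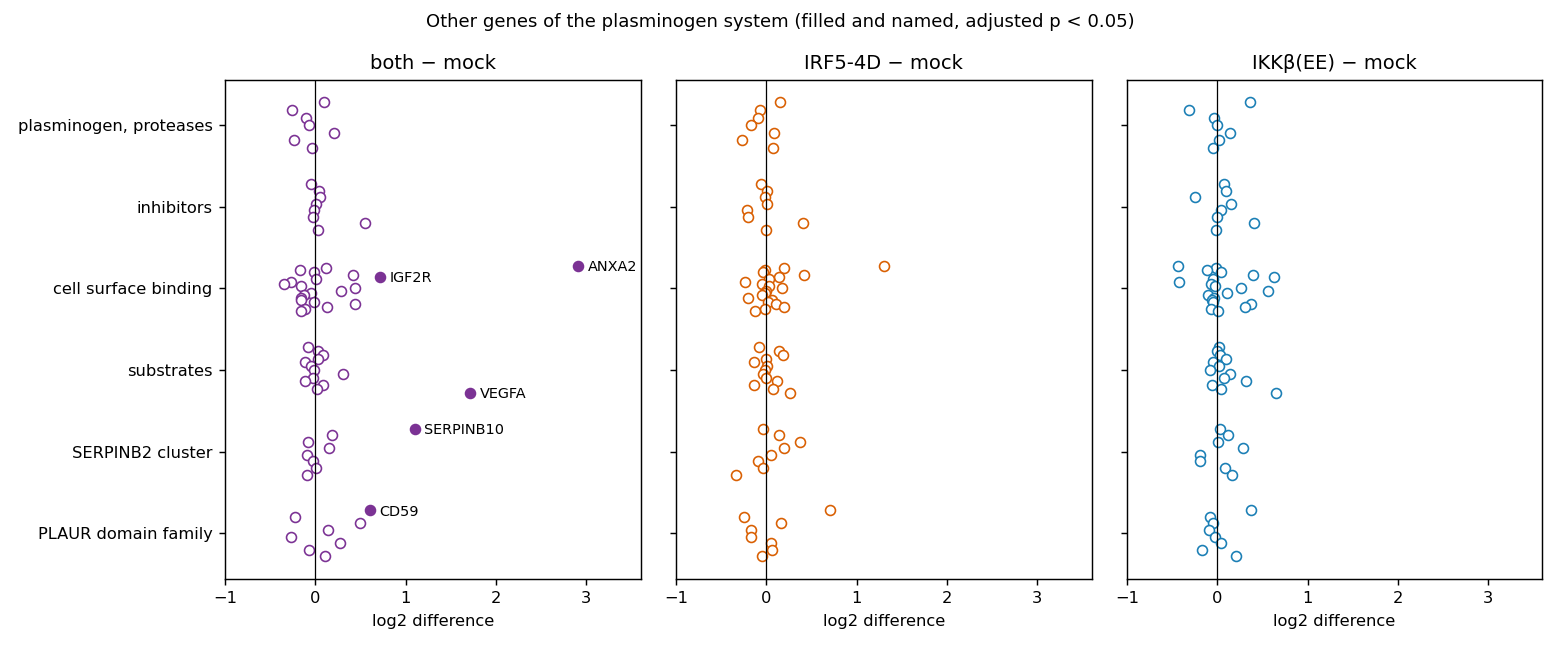
Log2 difference from mock (x axis) of the 65 other measured genes of the system, grouped by role (y axis), in the combination ("both"), with IRF5-4D and with IKKβ(EE), with filled and named points at an adjusted p under 0.05. The filled points are ANXA2, VEGFA, SERPINB10, IGF2R and CD59 in the combination, and 0 in the other panels.

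Genes with the most similar profiles were sought among 559 genes whose group means ranged over at least 1 log2 unit, by Pearson's correlation over the 8 arrays, as a description. Arrays of a group received the same constructs, so the 8 points are not independent. Closest to PLAU were CD40, a costimulatory receptor (0.994), the chemokine gene CCL2 (0.984) and IGLL5, an immunoglobulin lambda-like gene on a probe set that may bind relatives (0.983). CCL2 averaged 9.37 in the combination, 7.39 with IRF5-4D, 7.36 with IKKβ(EE) and 4.50 in mock cells.
Closest to PLAUR were ITM2C (0.995), the lymphocyte surface protein gene CD48 (0.993) and the antisense RNA gene KLRK1-AS1 (0.987). CD48 averaged 11.6 in the combination, 10.6 with IRF5-4D, 8.77 with IKKβ(EE) and 9.28 in mock cells.
Closest to PLAT were IL12A, the p35 subunit gene of interleukin-12 (0.999), CDH1, which encodes E-cadherin (0.998), and CHMP5 (0.997). CDH1 averaged 8.20 in the combination, 4.97 with IRF5-4D, 3.42 with IKKβ(EE) and 3.25 in mock cells.
Closest to SERPINE2 were IL10RA, a chain of the interleukin-10 receptor (0.988), SLC51A (0.983) and CPEB2 (0.98). IL10RA averaged 6.68 in the combination, 3.84 with IRF5-4D, 4.14 with IKKβ(EE) and 4.12 in mock cells. Among the members themselves the correlation was highest between PLAUR and PLAT (0.911) and lowest between PLAUR and SERPINE2 (0.654).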

How the data were processed

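The authors deposited log2 values for each array and probe set, made with RMA per the submitters' processing notes. RMA corrects background, quantile-normalizes between arrays and summarises probes, so a change is relative to the whole array and low levels are compressed. The sources used here name neither its version nor the chip definition.

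Of 54675 probe sets, 62 controls and 13522 others without exactly 1 symbol in the platform annotation were left out, which left 41091 probe sets. Members were tested on every probe set, and the other genes of the system on the probe set with the highest mean (19775 genes). A model of 4 group means on all 8 arrays was fitted by lmFit and eBayes (limma 3.58.1, R 4.3.3), which left 4 residual and 5.24 prior degrees of freedom. P values were adjusted by Benjamini-Hochberg over all features and called under 0.05. Intervals are moderated 95% confidence intervals, SE is the moderated standard error, and differences are on the log2 scale. The median SE was 0.142 between 2 groups and 0.201 for the interaction. The fit was tested on simulated data.

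Named were all member probe sets, the transfected genes, called genes of the list (otherwise the one that differed most per role) and the 3 genes most like each called member. PLG, S100A10, PLGRKT and NKG7 were chosen after their values were seen. Of the list, 4 genes were not analysed here. Alternatives were 1 probe set or the mean of all per gene, a filter on low levels, other normalizations and variance models, a replicate block, fits of the compared groups, another threshold and leaving out each array. The members and lists were chosen with earlier results of these data known.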

Additional observations from a re-analysis of the deposited data

Results flagged for a closer look

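For PLAUR the measured differences with IKKβ(EE) had opposite signs without and with IRF5-4D, and the reversal is not established. On each probe set the IKKβ(EE) arrays lay below the mock arrays, with differences of -0.45 (210845_s_at), -0.43 (211924_s_at) and -0.50 (214866_at). All combination arrays lay above all IRF5-4D arrays, with differences of 1.04, 0.99 and 1.23. None of these 6 differences passed limma's threshold, and the test of the difference between them is the interaction, which did not pass either (adjusted p from 0.337 to 0.398). The probe sets read the same arrays and correlated at 0.893 to 0.996, so they are not separate observations. The share of all probe sets with such an order of arrays was not counted.

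For SERPINE2 (212190_at) the effect of IKKβ(EE) differed with and without IRF5-4D by the interaction test, at 1.83 on the log2 scale (SE 0.19, adjusted p = 0.0162). This call was lost in 6 of 8 fits without 1 array (adjusted p up to 0.135) and with the mean of the SERPINE2 probe sets (0.97, adjusted p = 0.0614), and the other probe set (227487_s_at) had an interaction of 0.10 (adjusted p = 0.977).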

How the results depend on the processing

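Of 923 recomputed member differences, 856 kept their direction and side of the threshold, 42 lost the call, 15 gained it and 10 changed sign, none of the 10 being called in either fit. Those 10 were the PLAU (205479_s_at) interaction, at 0.68 with the mean of all probe sets, 0.24 without IKKβ(EE) replicate 1, 0.32 without combination replicate 3 and 0.19 without mock replicate 3 (range without 1 array -0.42 to 0.32). They also included SERPINE2 (227487_s_at), whose combination against IRF5-4D read -0.0096 with median centring, -0.17 without IRF5-4D replicate 1 and -0.13 without combination replicate 3 (range -0.17 to 0.18), whose interaction read -0.075 and -0.028 without the same arrays (range -0.075 to 0.28), and whose IRF5-4D against mock difference read -0.030 without IRF5-4D replicate 3.

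Counts of member probe sets fell by construction with 1 probe set a gene and with the mean per gene: to 4 in the combination against mock, 4 against IKKβ(EE) and 1 for IRF5-4D against IKKβ(EE) in both. The mean per gene also gave 0 with IRF5-4D against mock and 0 in the interaction. With only probe sets above the median, which drops members, the count was 2 for the combination against IRF5-4D and 0 for the interaction. At an adjusted p under 0.1 the interaction called 2. For the pathway list, the count in the combination was 3 with the mean per gene and 3 with only the compared groups, and that with IRF5-4D was 1 with the mean per gene and 1 at an adjusted p under 0.1. For the rest the cause was not tested.

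Without 1 array the member counts ranged from 6 to 7 in the combination, 0 to 4 with IRF5-4D and 0 to 1 with IKKβ(EE) against mock, 1 to 7 for the combination against IRF5-4D, 4 to 7 against IKKβ(EE), 0 to 3 for IRF5-4D against IKKβ(EE) and 0 to 4 for the interaction. The count of 4 against IRF5-4D was 1 when IRF5-4D replicate 3 was left out, 2 for IRF5-4D replicate 1 and 7 for combination replicate 3, and that of 7 against IKKβ(EE) became 4 without IKKβ(EE) replicate 3. The pathway counts ranged from 2 to 4 in the combination and 0 to 2 in the interaction.

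With the replicate number as a block, the interaction called 2 member probe sets, as PLAT joined (adjusted p = 0.0191), PLAUR (211924_s_at) passed in the combination against IRF5-4D (adjusted p = 0.0458), and the pathway counts were 1 with IRF5-4D and 1 in the interaction. Over all probe sets the block raised the calls in every comparison, from 1049 to 1639 in the combination against mock. Calls went from 100 to 157 with IRF5-4D, from 152 to 293 with IKKβ(EE) and from 33 to 99 in the interaction. The gaps between arrays 1 and 3 correlated at -0.059 to 0.327 between groups. The highest values were 0.327 (IKKβ(EE) with mock) and 0.303 (IRF5-4D with mock), and the lowest was -0.059 (combination with mock). Whether the numbers pair the samples is not given by the labels and was not tested. Where levels lie near the lower quartile, signal over background limits what a difference can show.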
